A study of Homo sapiens with 9 samples.

Results

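A group of 10 genes makes up the set described here: the IL-1 family cytokines IL1A, IL1B and IL18, the IL-1 receptor antagonist IL1RN, the receptor IL1R1, the IL-6 family cytokines IL6, IL11 and LIF, the shared signal transducer IL6ST and the oncostatin M receptor OSMR. They were chosen by gene symbol from the OVCAR4 gene count table and were 10 of its 58735 genes. All 10 passed the low-count filter, which kept 16928 genes.

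The study asked what loss of MPZL3, a membrane protein with an immunoglobulin-like domain that is predicted to act in cell adhesion, does to gene expression in OVCAR4, an ovarian serous adenocarcinoma cell line. RNA-seq was made from 9 libraries in 3 groups of 3 biological replicates. Cells of the scr group carried a scrambled shRNA in the lentiviral vector pLKO.1, and the other cells carried shMPZL3 #1 or shMPZL3 #2, which target different stretches of the MPZL3 transcript. Every group, scr included, was transduced with virus and then kept in puromycin for 3 days. No added cytokine is named for any group, and a single cell line was the source of all libraries, so the 3 replicates of a group measure the spread between cultures of that line.

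IL-1α and IL-1β both signal through IL1R1, which recruits MYD88 and IRAK kinases and leads to NF-κB activity, and IL1RN occupies the same receptor without signalling. IL-18 belongs to the same family, is cleaved by caspase-1 as IL-1β is, and uses its own receptor. IL-6, IL-11 and LIF each bind a receptor chain and then IL6ST, known as gp130, which activates JAK kinases and STAT transcription factors. OSMR pairs with gp130 for oncostatin M. In epithelial cancers these cytokines are known as secreted signals between tumour cells, stroma and leukocytes, and IL-1 is a known inducer of IL6 transcription.

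The libraries held 15040102 to 27835841 counts each, and the mitochondrial share of counts was 7.16% to 7.76% in scr, 7.75% to 8.65% with shMPZL3 #1 and 7.39% to 7.80% with shMPZL3 #2. The part of this difference in the changes with shMPZL3 #1 was not tested. MPZL3 itself was at 536, 611 and 587 normalized counts in the scr libraries, where a normalized count is a raw count scaled to the average effective library size. It was at 119, 143 and 123 with shMPZL3 #1 and at 284, 380 and 271 with shMPZL3 #2. Every knockdown library was below every scr library, and the transcript was lower by 2.17 on the log2 scale with shMPZL3 #1 than in scr (adjusted p = 3.73e-07, edgeR). With shMPZL3 #2 it fell by 0.89 (adjusted p = 0.000562, edgeR), and more transcript was left than with shMPZL3 #1 (log2 difference 1.28, SE 0.16, adjusted p = 5.72e-05, edgeR). The epithelial genes PAX8, EPCAM, KRT7, KRT8, KRT18, MUC16 and CDH1 summed to 3402 to 4262 TPM (counts scaled by gene length and by library).

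In all, 5 members rose and 1 fell when the 6 knockdown libraries were compared with the 3 scr libraries. IL1A, IL1B, IL6, LIF and OSMR were higher, IL18 was lower, and IL1RN, IL1R1, IL6ST and IL11 did not pass an adjusted p of 0.05 in edgeR's quasi-likelihood test. Over all genes tested, 9.36% were called higher and 6.4% lower in that comparison. For the same 6 members all 6 knockdown libraries lay on one side of all 3 scr libraries, 5 above and 1 below, against 11.8% of all genes above and 11% below. The median log2 fold change of the members was 1.03, against 0.02 for all genes. The members were chosen with earlier results of these data known, so these comparisons with all genes are descriptive. With scr replicate 1 left out, 1 member, IL1A, was called higher, and with scr replicate 2 left out, IL1A, IL6 and OSMR were. Over all genes the higher calls fell as well, from 1584 to 453 and 686 without these libraries. Since the RNA came from bulk cultures, more transcript per cell and more cells that express a gene cannot be told apart.

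**Figure D1:**
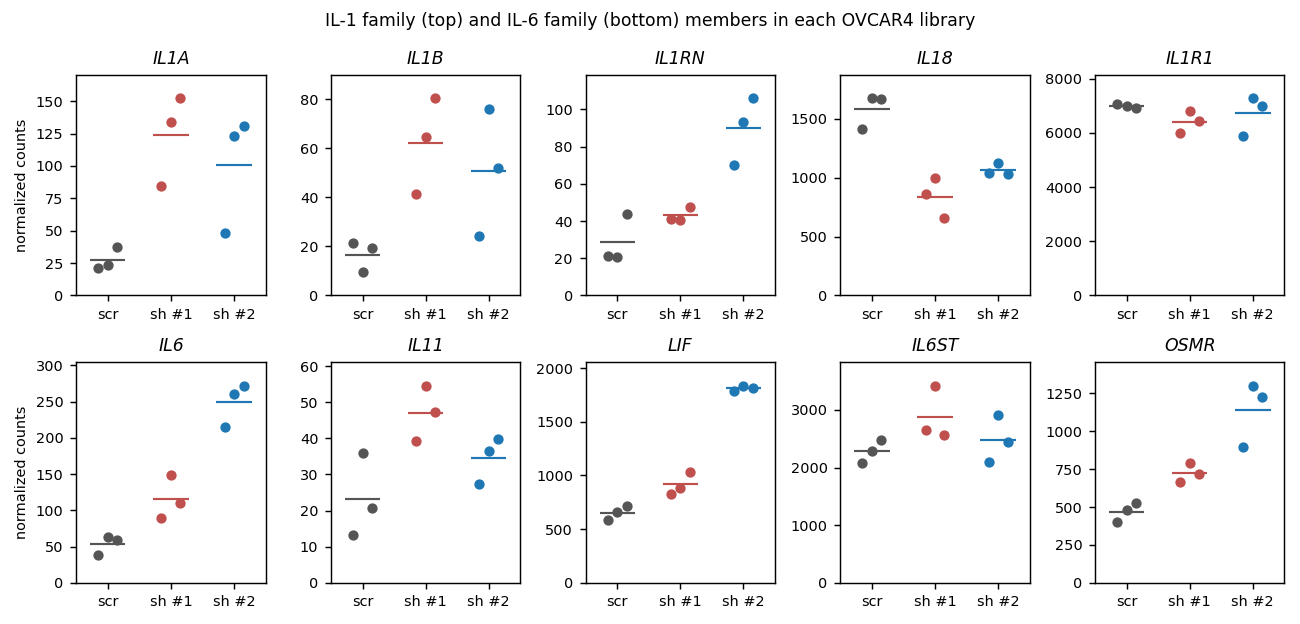
Normalized counts (y axis, from 0, own scale per gene) of the 10 members in each library, by group (x axis: scr, shMPZL3 #1 and shMPZL3 #2). Points are single libraries and horizontal lines are group means, and all knockdown points lie above the scr points for IL1A, IL1B, IL6, LIF and OSMR and below them for IL18.

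The stretches around the transcription starts of 4 of the members that rose are shown because IL1A, IL1B, IL6 and OSMR moved in the same direction. The sequences are RefSeq's for GRCh38.p14, from 250 bases before to 50 bases after an annotated start. Each is written 5′ to 3′ on the strand of its gene, at chr2:112784444-112784743 on the minus strand for IL1A, chr2:112836730-112837029 on the minus strand for IL1B, chr7:22726950-22727249 on the plus strand for IL6 and chr5:38845762-38846061 on the plus strand for OSMR. For IL1A, which has 2 entries, the one nearest the gene start of the count table was taken. Capitals mark matches to a searched motif.
IL1A: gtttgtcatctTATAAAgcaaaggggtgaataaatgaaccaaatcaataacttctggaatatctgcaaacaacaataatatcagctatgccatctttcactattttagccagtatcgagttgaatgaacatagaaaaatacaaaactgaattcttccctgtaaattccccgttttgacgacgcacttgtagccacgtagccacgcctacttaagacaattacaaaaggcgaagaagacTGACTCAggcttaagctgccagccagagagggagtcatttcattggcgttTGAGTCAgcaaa
IL1B: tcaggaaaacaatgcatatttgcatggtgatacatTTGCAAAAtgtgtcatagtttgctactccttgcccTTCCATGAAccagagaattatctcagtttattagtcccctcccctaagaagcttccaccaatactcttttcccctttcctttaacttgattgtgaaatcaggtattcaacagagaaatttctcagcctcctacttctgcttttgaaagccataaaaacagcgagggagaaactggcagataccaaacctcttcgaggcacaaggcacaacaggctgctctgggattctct
IL6: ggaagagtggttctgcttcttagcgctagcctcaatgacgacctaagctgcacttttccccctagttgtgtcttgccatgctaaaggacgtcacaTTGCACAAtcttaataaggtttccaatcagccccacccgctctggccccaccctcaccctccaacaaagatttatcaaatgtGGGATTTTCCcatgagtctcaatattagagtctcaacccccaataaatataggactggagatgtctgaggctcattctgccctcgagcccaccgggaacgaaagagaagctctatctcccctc
OSMR: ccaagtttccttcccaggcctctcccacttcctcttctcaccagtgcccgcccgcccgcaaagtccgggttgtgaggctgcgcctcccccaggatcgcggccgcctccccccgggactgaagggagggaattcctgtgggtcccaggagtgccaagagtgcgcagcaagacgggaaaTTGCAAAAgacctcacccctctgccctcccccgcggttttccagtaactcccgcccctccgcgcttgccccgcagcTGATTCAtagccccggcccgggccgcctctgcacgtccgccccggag

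Motifs were searched on both strands, and the TATA box on the strand of the gene. The IL6 sequence held the NF-κB match GGGATTTTCC, from 73 to 64 bases before the start, and the C/EBP match TTGCACAA, from 155 to 148 bases before it. IL1B held the STAT match TTCCATGAA and the C/EBP match TTGCAAAA. IL1A held the AP-1 match TGACTCA, from 12 to 6 bases before the start, and the AP-1 match TGAGTCA after it. The letters TATAAA lay from 239 to 234 bases before the IL1A start. OSMR held TTGCAAAA, from 73 to 66 bases before the start, and the AP-1 match TGATTCA just after it. Among all 35116 RefSeq sequences of that length, 11.3% held an NF-κB match, 7.71% the AP-1 letters TGANTCA, 7.66% the STAT letters TTCNNNGAA, 10.5% the C/EBP letters TTGCNNAA and 7.33% TATAAA. The members had 14 such sequences, from 8 genes, and sequences of the same gene can overlap. Of the 14, 2 held an NF-κB match, 5 an AP-1 match, 2 a STAT match, 4 a C/EBP match and 2 the TATA box letters. By gene, 2 of the 8 held an NF-κB match, 4 an AP-1 match, 2 a STAT match, 4 a C/EBP match and 2 TATAAA. Members not called in the grouped comparison held matches too. These were IL6ST for NF-κB, IL1RN and IL11 for AP-1, IL1R1 for STAT and C/EBP, and IL1RN for TATAAA. IL18 and LIF had no entry. A match describes letters in this window and no binding was measured. The matches in the sequences shown do not overlap each other.

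Levels differed widely between members. In scr, IL1R1 was the most abundant per length at 157 ± 2.10 TPM (SD, n = 3), followed by IL18 at 96.2 ± 9.63, IL6ST at 39.1 ± 3.41 and LIF at 26.2 ± 2.67. The receptor OSMR was at 10.4 ± 1.38 TPM and IL6 at 4.14 ± 1.04. IL1A (2.05 ± 0.64), IL1RN (1.40 ± 0.64), IL11 (1.39 ± 0.70) and IL1B (0.86 ± 0.32) followed, and the ranges of each neighbouring pair among these 4 overlapped over the scr libraries. The 5 members that rose were thus among the 7 with the lowest scr levels, and the 2 most abundant members were the receptor IL1R1 and the cytokine that fell. With shMPZL3 #2, LIF reached 70.5 ± 1.97 TPM, above IL18 at 62.5 ± 3.85 and IL6ST at 41.4 ± 7.45.

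**Figure D2:**
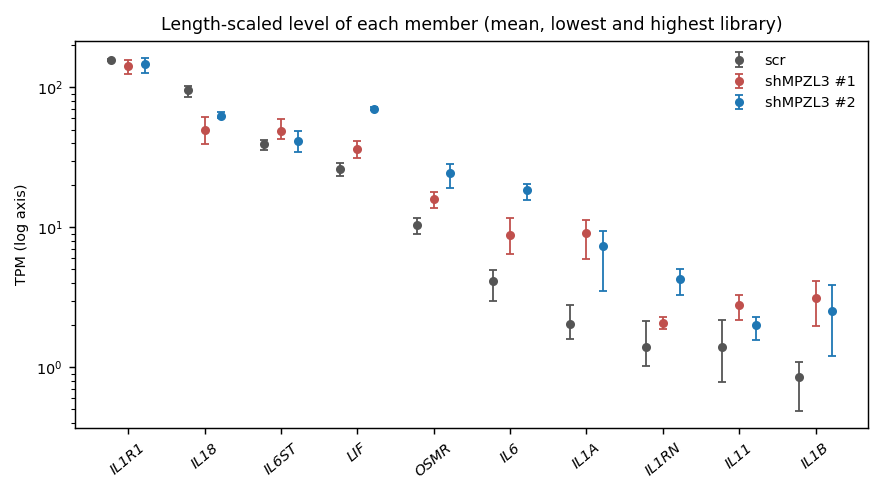
TPM of each member (y axis, log scale) in scr, shMPZL3 #1 and shMPZL3 #2, ordered by the scr mean. Points are means of 3 libraries and bars run from the lowest to the highest library, and IL1R1 lies near 157 in scr with the 3 groups overlapping while LIF lies at 26.2, 36.1 and 70.5.

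Among the agonist ligands, IL1A (chromosome 2, 112773915 to 112784590, minus strand, GRCh38) had the largest fold change of the members in the grouped comparison. It was at 21.3, 23.6 and 37.1 normalized counts in scr, at 84.2, 134 and 152 with shMPZL3 #1, and at 48.6, 123 and 131 with shMPZL3 #2. Each knockdown library was above each scr library, and shMPZL3 #2 replicate 1 was the lowest of the 6. The log2 fold change of the grouped knockdown was 2.04 (SE 0.36, adjusted p = 0.00327, edgeR), or 4.13-fold. The two-sided exact permutation test of the 6 against 3 libraries gave p = 0.0119, the smallest it can give. IL1A passed with shMPZL3 #1 (2.19, SE 0.37, adjusted p = 0.00029, edgeR) and with shMPZL3 #2 (1.90, SE 0.37, adjusted p = 0.00197, edgeR). Raw counts were 16 to 27 per library in scr and 48 to 174 in the knockdown, so single values carry considerable counting error. IL1A kept its call in all 15 alternatives of the grouped comparison.

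IL1B (chromosome 2, 112829751 to 112836903, minus strand), which lies 45.2 kb from IL1A, was the least abundant member in scr. It was at 21.3, 9.43 and 19.2 normalized counts in scr, at 41.2, 64.6 and 80.4 with shMPZL3 #1, and at 24.3, 76.1 and 51.9 with shMPZL3 #2. The knockdown libraries did not overlap scr, although shMPZL3 #2 replicate 1 came within 3.02 normalized counts of scr replicate 1. The grouped log2 fold change was 1.78 (SE 0.42, adjusted p = 0.0146, edgeR), with 10 to 16 raw counts per scr library. It was 1.93 (SE 0.44, adjusted p = 0.00307, edgeR) with shMPZL3 #1 and 1.64 (SE 0.44, adjusted p = 0.0188, edgeR) with shMPZL3 #2. The grouped call was lost without scr replicate 1 (adjusted p = 0.0522, edgeR) and without scr replicate 2 (adjusted p = 0.0842, edgeR). The call with shMPZL3 #2 was lost without scr replicate 2, shMPZL3 #2 replicate 2 or shMPZL3 #2 replicate 3, with adjusted p-values (edgeR) of 0.099, 0.0672 and 0.0517.

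IL1RN encodes the secreted and intracellular forms of the receptor antagonist and closes the same cluster on chromosome 2 (113107214 to 113134016, plus strand). Its normalized counts were 21.3, 20.8 and 44.0 in scr, 41.2, 40.7 and 47.3 with shMPZL3 #1, and 69.9, 93.3 and 106 with shMPZL3 #2. The shMPZL3 #2 libraries stood above the other 6, whereas shMPZL3 #1 overlapped scr because scr replicate 3 reached 44.0. IL1RN rose with shMPZL3 #2 (log2 fold change 1.67, SE 0.31, adjusted p = 0.00154, edgeR). With shMPZL3 #1 the value was 0.61 (SE 0.32, adjusted p = 0.167, edgeR), with a 95% interval from -0.08 to 1.30. The shRNAs differed by 1.06 (SE 0.29, adjusted p = 0.0214, edgeR), a difference that missed the threshold without shMPZL3 #1 replicate 2 (adjusted p = 0.0601, edgeR) or without shMPZL3 #2 replicate 3 (adjusted p = 0.107, edgeR). The grouped value, 1.23 (SE 0.40, adjusted p = 0.052, edgeR), lay next to the threshold, and 7 of its 15 alternatives passed.

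The balance of the 2 agonists and the antagonist was described per length within each library. The summed TPM of IL1A and IL1B was 2.58, 2.22 and 1.75 times that of IL1RN in the scr libraries. It was 4.19, 6.71 and 6.72 times with shMPZL3 #1 and 1.43, 2.87 and 2.41 times with shMPZL3 #2. All shMPZL3 #1 libraries were above the other 6, while shMPZL3 #2 and scr overlapped, with group means of 5.87 ± 1.46, 2.24 ± 0.74 and 2.19 ± 0.42 (SD, n = 3) for shMPZL3 #1, shMPZL3 #2 and scr. These are transcript ratios and no protein was measured.

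**Figure D3:**
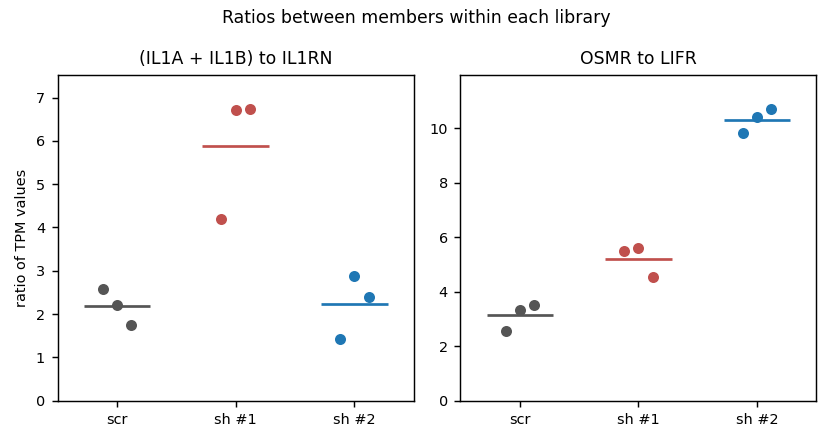
Ratio of TPM values (y axis, from 0) in each library for IL1A plus IL1B to IL1RN (left) and for OSMR to LIFR (right), by group. Points are libraries and lines are group means, and the left ratio is highest with shMPZL3 #1 (mean 5.87) while the right ratio is highest with shMPZL3 #2 (mean 10.3).

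IL18 (chromosome 11, 112143251 to 112164117, minus strand) was the member that fell. It was at 1411, 1673 and 1670 normalized counts in scr, at 864, 993 and 656 with shMPZL3 #1, and at 1037, 1121 and 1032 with shMPZL3 #2. All knockdown libraries were below all scr libraries. The grouped log2 fold change was -0.74 (SE 0.14, adjusted p = 0.00496, edgeR), so that 0.6 of the scr level was left. The change was -0.92 (SE 0.13, adjusted p = 7.97e-05, edgeR) with shMPZL3 #1 and -0.58 (SE 0.13, adjusted p = 0.00599, edgeR) with shMPZL3 #2. The difference between the shRNAs was 0.34 (95% interval 0.07 to 0.62, adjusted p = 0.0848, edgeR) and did not pass, and 3 of its 14 alternatives did. IL18 kept its call in all alternatives of the grouped comparison, which were 15. IL18 and MPZL3 lie on the same chromosome, 6.06 Mb apart.

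IL1R1, the signalling receptor for both IL-1 agonists, was at 6913 to 7074 normalized counts in scr, 5981 to 6823 with shMPZL3 #1 and 5890 to 7283 with shMPZL3 #2. The shMPZL3 #1 libraries were below scr but did not pass (-0.12, adjusted p = 0.377, edgeR), and the shMPZL3 #2 libraries overlapped scr. The grouped difference was -0.09 (SE 0.10, 95% interval -0.29 to 0.12, adjusted p = 0.559, edgeR), so that a change larger than the bounds of this interval was not seen, with at least 5028 counts in every library. Within the chromosome 2 receptor cluster, the decoy receptor IL1R2 fell with shMPZL3 #1 (-0.52, SE 0.11, adjusted p = 0.00212, edgeR) and had a value of -0.12 with shMPZL3 #2 (adjusted p = 0.528, edgeR). The shRNAs differed for IL1R2 by 0.40 (SE 0.11, adjusted p = 0.022, edgeR). IL18R1, a chain of the IL-18 receptor, rose with shMPZL3 #1 (0.70, SE 0.20, adjusted p = 0.013, edgeR) and was at 0.48 with shMPZL3 #2 (adjusted p = 0.118, edgeR). The IL-36 receptor IL1RL2 was at 0.13 in the grouped comparison (adjusted p = 0.514, edgeR). The other genes of the receptor cluster, IL1RL1 and IL18RAP, had at most 3 and 8 counts in a library.

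IL6 (chromosome 7, 22725884 to 22732002, plus strand) was at 38.6, 63.2 and 59.1 normalized counts in scr. It was at 89.7, 148 and 110 with shMPZL3 #1 and at 215, 261 and 272 with shMPZL3 #2. The 3 groups formed 3 separate ranges, scr below shMPZL3 #1 and shMPZL3 #1 below shMPZL3 #2. The log2 fold change was 1.09 (SE 0.24, adjusted p = 0.00205, edgeR) with shMPZL3 #1 and 2.20 (SE 0.23, adjusted p = 8.43e-06, edgeR) with shMPZL3 #2. Their difference, 1.11, passed the direct test (SE 0.21, adjusted p = 0.00207, edgeR), with the larger rise on the side where more MPZL3 transcript was left. The grouped value was 1.76 (SE 0.37, adjusted p = 0.00797, edgeR) and lost its call without scr replicate 1 (adjusted p = 0.0632, edgeR). Libraries carried no strand information, and STEAP1B, which overlaps IL6 on the opposite strand, held 286 counts over all libraries against 1333 for IL6. STEAP1B had a grouped log2 fold change of -0.06 (SE 0.29, adjusted p = 0.909, edgeR).

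LIF, a cytokine that binds LIFR and gp130 (chromosome 22, 30240447 to 30246851, minus strand), was at 585, 657 and 716 normalized counts in scr. It was at 831, 886 and 1034 with shMPZL3 #1 and at 1790, 1837 and 1811 with shMPZL3 #2. The ranges of the 3 groups were separate, and the shMPZL3 #2 libraries had an SD of 23.7. The log2 fold change was 0.49 (SE 0.11, adjusted p = 0.00282, edgeR) with shMPZL3 #1 and 1.47 (SE 0.11, adjusted p = 4.96e-07, edgeR) with shMPZL3 #2. The shRNAs differed by 0.98 (SE 0.11, adjusted p = 2.26e-05, edgeR). The grouped value of 1.06 (SE 0.26, adjusted p = 0.0182, edgeR), in which this gap between the shRNAs counts as spread, lost its call when any 1 scr library was left out, with adjusted p-values (edgeR) of 0.105, 0.0728 and 0.053 without replicates 1, 2 and 3. The per-shRNA calls of LIF held in all 14 of their alternatives.

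IL11, a gp130 cytokine with its own receptor IL11RA (chromosome 19, 55364389 to 55370463, minus strand), had few counts. It was at 13.3, 35.8 and 20.6 normalized counts in scr, at 39.4, 54.6 and 47.3 with shMPZL3 #1, and at 27.3, 36.5 and 39.8 with shMPZL3 #2. The shMPZL3 #1 libraries were above scr, and the shMPZL3 #2 libraries overlapped it. IL11 did not pass with shMPZL3 #1 (0.98, SE 0.37, 95% interval 0.20 to 1.75, adjusted p = 0.0508, edgeR), with shMPZL3 #2 (0.54, SE 0.37, adjusted p = 0.362, edgeR) or in the grouped comparison (0.78, SE 0.35, adjusted p = 0.14, edgeR). The value with shMPZL3 #1 passed in 5 of 14 alternatives.

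OSMR, the signalling chain for oncostatin M (chromosome 5, 38845858 to 38945596, plus strand), was the member among the receptors that rose. It was at 403, 481 and 524 normalized counts in scr, at 665, 793 and 719 with shMPZL3 #1, and at 896, 1302 and 1229 with shMPZL3 #2. As for IL6 and LIF, the 3 groups formed separate ranges in the order scr, shMPZL3 #1, shMPZL3 #2. The log2 fold change was 0.63 (SE 0.14, adjusted p = 0.00312, edgeR) and 1.28 (SE 0.14, adjusted p = 1.66e-05, edgeR) with shMPZL3 #1 and #2. The difference between them was 0.66 (SE 0.14, adjusted p = 0.00441, edgeR). The grouped value was 0.99 (SE 0.21, adjusted p = 0.00889, edgeR), and it missed the threshold without scr replicate 1 (adjusted p = 0.0695, edgeR). RICTOR, which overlaps OSMR on the opposite strand, held 3846 counts against 7283 for OSMR and had a grouped value of -0.18 (SE 0.14, adjusted p = 0.411, edgeR). LIFR, the neighbouring receptor gene 237.5 kb away, was at -0.26 (SE 0.16, adjusted p = 0.299, edgeR). Per length, OSMR was 3.13 ± 0.52 times LIFR in scr, 5.21 ± 0.57 times with shMPZL3 #1 and 10.3 ± 0.44 times with shMPZL3 #2 (SD, n = 3), and the 3 ranges were separate.

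IL6ST, the gp130 chain that IL-6, IL-11 and LIF share, was at 2081, 2284 and 2475 normalized counts in scr. It was at 2653, 3424 and 2569 with shMPZL3 #1 and at 2094, 2912 and 2450 with shMPZL3 #2. The shMPZL3 #1 libraries were above scr, and shMPZL3 #2 overlapped both. The value with shMPZL3 #1 was 0.34 (SE 0.13, adjusted p = 0.0581, edgeR) and passed in 8 of 14 alternatives. With shMPZL3 #2 it was 0.12 (SE 0.13, adjusted p = 0.569, edgeR), and the grouped value was 0.24 (95% interval -0.06 to 0.53, adjusted p = 0.254, edgeR).

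Seen by shRNA, 5 members were called higher and 1 lower with shMPZL3 #1, where 16.8% of all genes were called higher and 15.3% lower. With shMPZL3 #2, 6 were called higher and 1 lower, against 9.36% and 5.8% of all genes. In the direct comparison of shMPZL3 #2 with shMPZL3 #1, IL1RN, IL6, LIF and OSMR were higher and none was lower in edgeR, at an unadjusted p under 0.05 or in DESeq2, while 7.56% of all genes were higher and 7.56% lower. IL1A and IL1B were not called in it, and both had a value of -0.29, with 95% intervals from -0.95 to 0.38 and from -1.09 to 0.52. A difference between the shRNAs of the size seen for IL6 lay outside both intervals. The comparisons with scr share the 3 scr libraries. In 3 against 3 libraries an exact permutation test cannot give a p below 0.1.

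**Figure D4:**
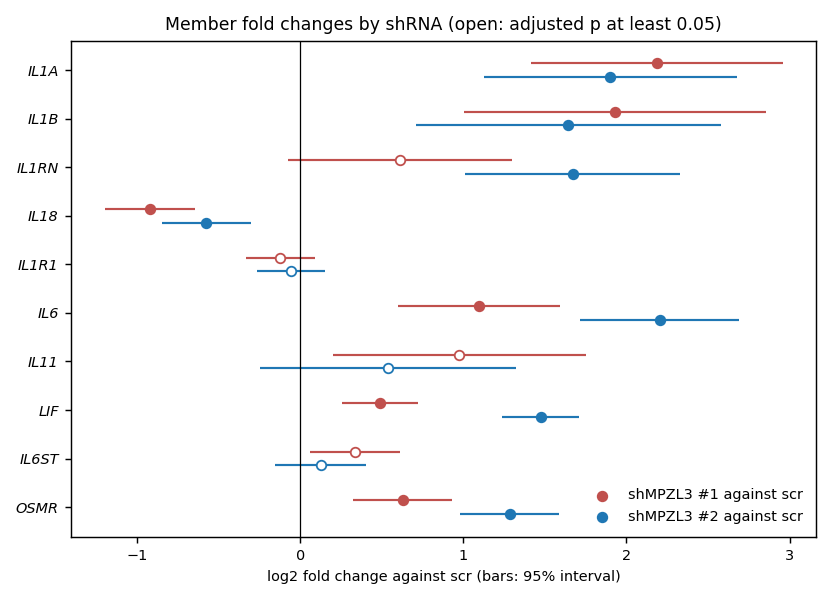
Log2 fold change against scr (x axis) of each member with shMPZL3 #1 and with shMPZL3 #2. Points are edgeR estimates, filled where the adjusted p was under 0.05, and bars are 95% intervals, with IL1A and IL1B near 2 for both shRNAs, IL18 below 0 for both, and IL6, LIF and OSMR higher with shMPZL3 #2.

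The similarity of patterns was measured as the root mean square difference in log2 CPM, each gene centred on its own mean over the 9 libraries. Among the members, LIF and OSMR were closest at 0.21, and IL1A and IL1B were 0.35 apart. Over 11833 other protein-coding genes, those nearest to IL1A were TRAF1 at 0.23, IFIT2 at 0.26 and IFI16 at 0.29. The genes nearest to IL1B were TRAF1 at 0.31, IL1A itself at 0.35 and CBFA2T3 at 0.36. For IL6 they were TCIM at 0.26, RHCG at 0.26 and ETV7 at 0.29. These values describe 9 libraries in 3 groups and do not separate the genes from others that follow the same groups.

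Other ligands and receptors of the 2 families were taken as lists of partners. Over all genes tested, 9.36% were called higher and 6.4% lower in the grouped comparison. Of 15 IL-1 family partners 7 passed the low-count filter, and none was called in the grouped comparison (median log2 fold change -0.07). At an unadjusted p under 0.05 in edgeR, 1 of them was higher and 1 lower, and DESeq2 called 1 higher and 0 lower. The alarmin IL33 was at 49.2, 69.8 and 53.6 normalized counts in scr, 138, 205 and 161 with shMPZL3 #1 and 68.8, 43.6 and 30.1 with shMPZL3 #2. It rose with shMPZL3 #1 (1.53, SE 0.27, adjusted p = 0.000503, edgeR), overlapped scr with shMPZL3 #2 (-0.31, SE 0.29, adjusted p = 0.523, edgeR), and differed between the shRNAs by -1.84 (SE 0.27, adjusted p = 0.000314, edgeR). SIGIRR, an inhibitory receptor of the family, differed between the shRNAs by 0.53 (SE 0.14, adjusted p = 0.0152, edgeR). The co-receptor IL1RAP and the IL-18 binding protein IL18BP had grouped values of -0.15 and -0.21 and did not pass. The 6 genes between IL1B and IL1RN, namely IL36A, IL36B, IL36G, IL36RN, IL37 and IL1F10, had at most 11 counts in any library.

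Of 13 IL-6 family partners 10 were tested and 2 were called higher in the grouped comparison (median 0.05). CTF1, which encodes the gp130 ligand cardiotrophin 1, was at 116, 143 and 169 normalized counts in scr, 302, 317 and 310 with shMPZL3 #1, and 335, 269 and 295 with shMPZL3 #2. The knockdown libraries were all above scr, by 1.09 on the log2 scale (SE 0.15, adjusted p = 0.000743, edgeR). IL31RA, a receptor chain that pairs with OSMR for IL-31, lies 12.2 kb from IL6ST. It had 2, 0 and 0 counts in scr, 15, 18 and 23 with shMPZL3 #1 and 16, 6 and 5 with shMPZL3 #2, and it was called higher (adjusted p = 0.0213, edgeR). No fold is given for IL31RA because its scr counts were at the floor of 3 counts. IL31RA passed the low-count filter only through knockdown libraries, the side where it was high, so its call is descriptive. EBI3, a subunit of IL-27 and IL-35, rose with shMPZL3 #2 (0.89, SE 0.25, adjusted p = 0.0228, edgeR) and was at 0.06 with shMPZL3 #1. The receptors IL6R, IL11RA and IL27RA and the ligands CNTF and CLCF1 had grouped values from -0.19 to 0.20 and did not pass. OSM, the ligand of OSMR, lies 16.0 kb from LIF and had at most 9 counts in a library.

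Genes of cytokine processing, signalling and response were counted in the same way. Over all genes tested, 9.36% were called higher and 6.4% lower in the grouped comparison. Higher calls over all genes were 16.8% with shMPZL3 #1 and 9.36% with shMPZL3 #2. Between the shRNAs, 7.56% of all genes were higher and 7.56% lower. Where no gene of a list below was called lower in the grouped comparison, edgeR at an unadjusted p under 0.05 and DESeq2 each gave 0 lower genes as well. Of 10 tested genes of IL-1 processing and release, 4 were called higher and none lower in the grouped comparison, with a median of 0.49. They were CASP1, which cleaves IL-1β and IL-18 (1.26, SE 0.37, adjusted p = 0.0349, edgeR), CASP4, a caspase that senses lipopolysaccharide, the inflammasome adaptor PYCARD and NINJ1, which acts in membrane rupture. CASP1 was at 63.8, 50.9 and 68.7 normalized counts in scr, 149, 222 and 233 with shMPZL3 #1 and 89.1, 114 and 71.4 with shMPZL3 #2. In this list 6 genes were called higher with shMPZL3 #1, and CASP1, CASP4, PYCARD and NINJ1 were among them. With shMPZL3 #2 these 4 did not pass (adjusted p = 0.117, 0.0615, 0.111 and 0.133, edgeR). The 1 gene called higher with shMPZL3 #2 was CAPN2 (0.30, adjusted p = 0.045, edgeR), which was not called in the grouped comparison. The direct test gave a lower CASP1 level with shMPZL3 #2 (-1.14, SE 0.22, adjusted p = 0.00246, edgeR).

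Of 11 IL-1 receptor signalling genes, 4 were called higher and none lower. These were the adaptor MYD88 (0.71, SE 0.12, adjusted p = 0.00208, edgeR), the kinase genes IRAK1 and IRAK2, and TOLLIP, an inhibitor of IRAK1. IRAK2 was at 9.31, 20.8 and 11.0 normalized counts in scr, 40.3, 70.5 and 67.1 with shMPZL3 #1 and 30.4, 55.8 and 45.1 with shMPZL3 #2. The knockdown libraries did not overlap scr (1.86, SE 0.38, adjusted p = 0.00697, edgeR).

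Of 14 gp130 signalling genes, 3 were called higher and 1 lower. STAT5A, a transcription factor activated by JAK kinases, rose by 0.47 (SE 0.13, adjusted p = 0.0249, edgeR). JAK1, a kinase that associates with gp130, rose by 0.38 (SE 0.11, adjusted p = 0.0281, edgeR). PTPN11, the phosphatase SHP2 that docks on gp130, fell by 0.32 on the log2 scale (SE 0.10, adjusted p = 0.0384, edgeR). STAT3, the main factor below gp130, was at 0.21 (SE 0.10, adjusted p = 0.18, edgeR), and SOCS3, a feedback inhibitor it induces, was at -0.06 (SE 0.14, adjusted p = 0.807, edgeR).

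Of 21 tested response genes of IL-1 and IL-6, 11 were called higher and none lower, with a median log2 fold change of 1.59. The complement gene C3 rose by 1.74 (SE 0.26, adjusted p = 0.00114, edgeR), the acute-phase gene SAA1 by 2.45, LCN2, which binds bacterial siderophores, by 1.59, and the adhesion gene ICAM1 by 1.02. SAA1 was at 16.0, 94.3 and 118 normalized counts in scr, 258, 248 and 553 with shMPZL3 #1 and 420, 536 and 495 with shMPZL3 #2. Scr replicate 1 was the lowest library for C3, SAA1, LCN2 and ICAM1. With shMPZL3 #1, 12 of the 21 were called higher, and with shMPZL3 #2, 18 were. In the direct comparison 12 were higher with shMPZL3 #2 and 0 lower, by edgeR and by DESeq2. MMP1 is among the 18 and among the 12 of edgeR. It had 0, 1 and 3 raw counts in scr, 0, 0 and 6 with shMPZL3 #1, and 14, 10 and 29 with shMPZL3 #2. MMP1 thus passed the low-count filter only through the group where it was high, and its calls are descriptive. CXCL8 and CCL20, chemokines of neutrophils and of lymphocytes, were named after their values were seen. CXCL8 was at 424, 1167 and 1136 normalized counts in scr, 1008, 1192 and 1091 with shMPZL3 #1, and 4549, 7836 and 5175 with shMPZL3 #2, a difference between the shRNAs of 2.42 (SE 0.27, adjusted p = 2.39e-05, edgeR). CCL20 was at 29.3, 108 and 109 normalized counts in scr, 39.4, 58.6 and 35.9 with shMPZL3 #1, and 481, 855 and 510 with shMPZL3 #2. Its difference between the shRNAs was 3.78 (SE 0.34, adjusted p = 4.12e-06, edgeR). Neither was called in the grouped comparison (adjusted p = 0.0609 for CXCL8 and 0.167 for CCL20, edgeR). With shMPZL3 #1 against scr, CXCL8 was at 0.27 and CCL20 at -0.90, and neither passed (adjusted p = 0.471 and 0.0753, edgeR).

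**Figure D5:**
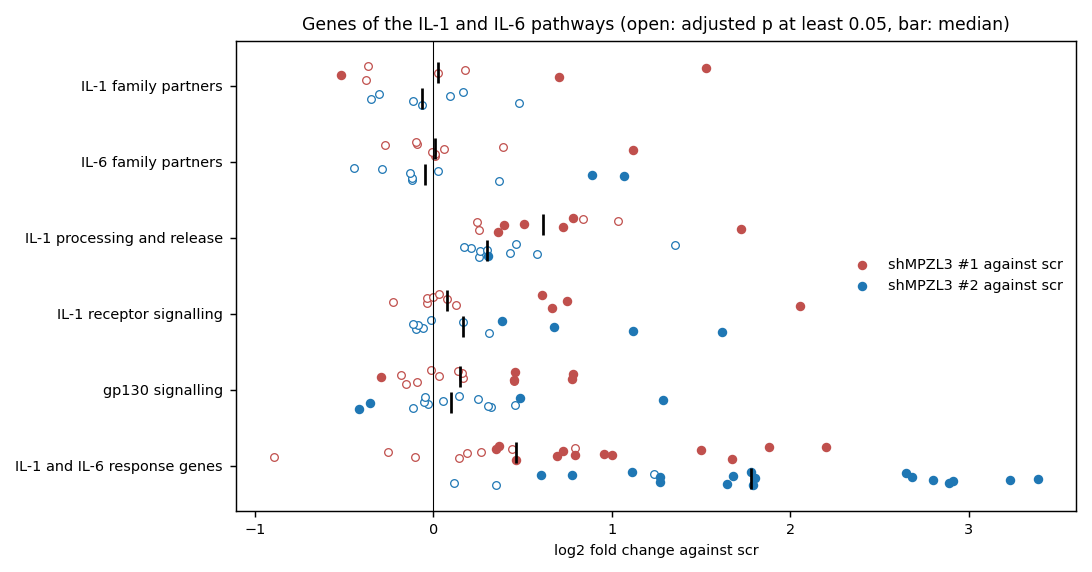
Log2 fold change against scr (x axis) of the tested genes of 6 lists with shMPZL3 #1 and with shMPZL3 #2. Points are genes, filled where the adjusted p was under 0.05, and black bars are medians over all tested genes of a list, with the response genes at 0.46 for shMPZL3 #1 and 1.78 for shMPZL3 #2. IL31RA and MMP1, at the floor in scr, count in the medians and are not drawn.

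Over all 6 lists, 24 of 73 tested genes were called higher and 1 lower in the grouped comparison. The 24 include IL31RA, which passed the low-count filter only through knockdown libraries. Leaving out scr replicate 1 or 2 brought the higher calls to 9 and 10, while those over all genes went from 1584 to 453 and 686. Markers of other cell types were read beside these changes. The 9 leukocyte markers summed to 3.43 to 5.56 TPM in scr, 5.97 to 8.72 with shMPZL3 #1 and 6.29 to 9.28 with shMPZL3 #2. Among them CD14, ITGAM and CSF1R were called higher, TYROBP was at 0 in every library, and CD68 and LYZ had at most 1 count. The 6 fibroblast markers summed to 9.01 to 11.5 TPM in scr, 16.4 to 26.3 with shMPZL3 #1 and 18.1 to 22.8 with shMPZL3 #2, with LUM and COL1A1 called higher, DCN at 0 in every library and PDGFRA at no more than 2 counts. The 4 endothelial markers summed to 3.31 to 4.34, 3.01 to 3.57 and 5.78 to 6.95 TPM in scr, shMPZL3 #1 and shMPZL3 #2, and none of the 3 tested was called by edgeR. The part of these transcripts in the changes of the members was not tested.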

How the data were processed

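The deposited table holds raw counts per gene for the 9 OVCAR4 libraries, made by the authors from poly-A selected, non-directional RNA-seq without normalization or pooling of replicates. The submitters' processing notes name HISAT2 2.0.5, featureCounts 1.5.0-p3 and the hg38 build. Libraries were assigned to groups by their labels. The deposited gene length column, taken as other annotation, was used for TPM. All 58735 genes matched GENCODE 29 in identifier, position and name.

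Counts were tested in edgeR 4.0.16 (R 4.3.3) with TMM scaling, with factors from 0.983 to 1.03, and the quasi-likelihood test, two-sided. The filterByExpr rule kept 16928 genes, and p-values were adjusted by Benjamini-Hochberg over these. The grouped comparison (6 against 3) used 2 groups, and the comparisons by shRNA used a fit of 3 groups. Genes were called at an adjusted p under 0.05. Log2 CPM used a prior count of 2. SE is the fold change divided by the square root of F. Scripts were tested on simulated data with known fold changes. Alternatives were RLE and upper-quartile scaling, DESeq2 1.42.0, no low-count filter, a replicate block, averaging both shRNAs in the fit of 3 groups, and each library left out.

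Total counts of 15040102 to 27835841 per library set the counting error, which is largest for the members with few counts, IL1B, IL1A, IL1RN and IL11. Between replicates, the chi-square per gene was 3.10 to 23.4, so no library was a duplicate. The members, gene lists and marker lists were chosen with earlier results of these data known, and the lists were written from general knowledge. Named were all members and tested partners, apart from results that are not reported here. In the other lists, called genes of the grouped comparison were named, up to 4 of smallest p, and for IL1A, IL1B and IL6 the 3 genes of most similar pattern (average log2 CPM of at least 1) were named. Overlapping genes with at least 5% of a member's counts were reported beside it. CXCL8, CCL20, STAT3, SOCS3, CAPN2 and MMP1 were added to these names once their values were known. The OVCA433 libraries were not analysed here.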

Additional observations from a re-analysis of the deposited data

Results flagged for a closer look

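A difference between the shRNAs, tested directly as shMPZL3 #2 minus shMPZL3 #1 in edgeR, called for a closer look at 4 members. The log2 difference was 1.06 for IL1RN, 1.11 for IL6, 0.98 for LIF and 0.66 for OSMR, each higher with shMPZL3 #2 in 3 of 3 libraries, while MPZL3 transcript was lower with shMPZL3 #1. In the pathway lists, 19 of 73 tested genes differed between the shRNAs, 17 of them higher with shMPZL3 #2. Of these 17, 12 were response genes of IL-1 and IL-6. These 12 include MMP1, which passed the low-count filter only through the shMPZL3 #2 libraries. Over all genes tested, 7.56% were higher and 7.56% lower with shMPZL3 #2. What lies behind these differences was not tested.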

How the results depend on the processing

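The 10 members, MPZL3 and the counts of calls were recomputed with other scalings, DESeq2, no low-count filter, a replicate block, the mean of the shRNAs and each library left out. The number of members called higher in the grouped comparison, 5, ranged from 1 to 6 when 1 library was left out, with 1 without scr replicate 1 and 3 without scr replicate 2. Over all genes the higher calls went from 1584 to 453, 686 and 815 without scr replicates 1, 2 and 3. Pathway genes called higher in the grouped comparison, 24, came to 9, 10 and 16 without them, and to 23 to 27 without a knockdown library. The single pathway gene called lower in it became 0 with no low-count filter, 3 with the mean of the shRNAs, and 0 to 2 with 1 library left out. For shMPZL3 #1, the 2 pathway genes called lower became 1 with upper-quartile scaling and 1 to 4 with a library left out, and for shMPZL3 #2 the 2 became 0 to 4. Between the shRNAs, 17 higher calls became 10 to 16 with a library left out, and the 2 lower calls became up to 4.

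Small values changed sign in 4 cases, none of them called. With a library left out, the difference between the shRNAs ranged from -0.54 to 0.025 for IL1A and from -0.68 to 0.022 for IL1B, and IL1R1 with shMPZL3 #2 ranged from -0.12 to 0.014, each positive without shMPZL3 #2 replicate 1. Without shMPZL3 #2 replicate 2, IL6ST with shMPZL3 #2 was -0.0072, the lowest of values that reached 0.22. IL1RN in the grouped comparison passed with upper-quartile scaling, DESeq2, no filter and the mean of the shRNAs (adjusted p of 0.0483, 0.0152, 0.00815 and 0.00737). The causes were not tested.

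Same-numbered libraries of different groups had deviations that correlated at -0.0014 to 0.22, not all above 0.1, so that the numbers were taken as labels only, although 8 of 9 libraries correlated best with a library of their own number. With a replicate block the pathway genes called lower were 4 for shMPZL3 #1 and 6 in the direct comparison of the shRNAs. The members called higher with shMPZL3 #1 went from 5 to 7, with IL6ST and IL11 added (adjusted p of 0.0105 and 0.0238), and IL18 passed between the shRNAs (log2 difference 0.35, adjusted p = 0.0234, edgeR). Over all genes, higher and lower calls went from 1584 and 1083 to 1434 and 990 in the grouped comparison. With the block they went from 2838 and 2585 to 3251 and 3104 for shMPZL3 #1. For shMPZL3 #2 they went from 1585 and 982 to 2083 and 1597, and between the shRNAs from 1279 and 1280 to 2015 and 1808. With 10 to 38 counts per scr library, IL1A, IL1B, IL1RN and IL11 carry the largest counting error of the members, and the spread between cultures adds to it.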
